A study of Mus musculus with 7 samples.

Results

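The genes of voltage-gated calcium and sodium channel subunits were described in pancreatic islets of mice whose Gata6 gene, which encodes a transcription factor of pancreas development, was targeted. Members were all genes whose symbol in the array's annotation begins with Cacna to Cacng, or with Scn, a number and a, b or g. RefSeq lists 40 such mouse genes, and 36 of them were measured, out of 22180 genes in all. They comprised 10 calcium and 8 sodium channel genes of pore-forming subunits, and 15 calcium and 3 sodium channel genes of auxiliary subunits. The other 4 were not analysed here.

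The arrays labelled Gata6 KO (4 arrays) carried islet RNA of mice with the genotype Gata6 flox/flox and Pdx1-Cre, and the control arrays (3 arrays) that of Gata6 flox/flox mice. Both groups carried floxed Gata6, and no array held RNA of mice with Cre alone. Pdx1-Cre is active in the epithelium of the developing pancreas, exocrine cells included, and not in beta cells alone. Each array held islets of 3 mice aged 2 months, pooled after collagenase digestion, so that replicates were separate pools and p-values covered the spread between pools. Values were log2 signals from whole-transcript arrays.

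Gata6 measured 5.41, 5.35, 5.34 and 5.01 on the arrays labelled Gata6 KO, against 4.60, 4.80 and 4.83 on the control arrays, so its signal went against the label. The floxed exons are not given in the sources used here, and probes that lie elsewhere in Gata6 would not test the label. Directions below are therefore those of the labels. Xist, which is expressed from the inactive X chromosome of female cells, measured 2.15 on the array labelled Gata6 KO 3 and 1.34 on control array 3, and at least 5.02 on the other 5 arrays. The array labelled Gata6 KO 3 also stood apart in endocrine markers: the mean log2 signal of 11 such genes was 6.17, 6.65, 4.96 and 6.79 on Gata6 KO arrays 1 to 4, against 8.79, 8.47 and 8.29 on control arrays 1 to 3. The median log2 difference of all genes, Gata6 KO minus control, was 0.17. Every change below is a log2 difference minus this shift, with the SE and adjusted p of the unshifted difference. Folds are of this shifted change. Signals are not set against each other between genes, since each probe set responds differently.

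Voltage-gated calcium channels are built on a pore-forming alpha-1 subunit, encoded by a Cacna1 gene, which senses voltage and sets the channel type. Beta subunits (Cacnb) bind the cytoplasmic side of high-voltage-activated pores and carry them to the membrane, alpha-2-delta subunits (Cacna2d) sit outside it, and most gamma-type genes (Cacng) encode auxiliary proteins of AMPA receptors. Sodium channels pair a pore-forming alpha subunit with beta subunits that also act in cell adhesion. In beta cells, closure of potassium channels by glucose metabolism depolarises the membrane, these channels shape the action potentials, and calcium entry releases insulin.

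Promoter sequences are shown for the 3 genes with the largest falls and the gene with the largest rise. RefSeq promoter windows of build GRCm38.p6 were found for 28 of the 36 genes (38 windows), and the 250 bases before each start were searched on both strands for AGATAA (a motif of GATA factors), TATAAA (the TATA box) and GGGCGG (the GC box). Capitals mark these motifs, which run together where copies overlap or touch. Cacna1d has a start at chr14:30491157-30491406 (minus strand) with 3 TATA box matches and 2 CpG. These matches are counted on both strands, and the stretch TTTATAAA holds overlapping ones. Another start is at chr14:30353487-30353736 (minus strand) with 5 GC boxes and 50 CpG. The windows of Cacna2d1 (chr5:15934441-15934690, plus strand) and Scn9a (chr2:66634963-66635212, minus strand) belong to the other 2 genes with the largest falls, and that of Cacng7 (chr7:3332575-3332824, plus strand) to a gene that rose.
Cacna1d, first window: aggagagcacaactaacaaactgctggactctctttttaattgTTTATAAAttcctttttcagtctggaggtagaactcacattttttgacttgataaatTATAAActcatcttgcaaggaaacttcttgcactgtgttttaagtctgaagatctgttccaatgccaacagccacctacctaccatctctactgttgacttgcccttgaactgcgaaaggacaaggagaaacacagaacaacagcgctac
Cacna1d, second window: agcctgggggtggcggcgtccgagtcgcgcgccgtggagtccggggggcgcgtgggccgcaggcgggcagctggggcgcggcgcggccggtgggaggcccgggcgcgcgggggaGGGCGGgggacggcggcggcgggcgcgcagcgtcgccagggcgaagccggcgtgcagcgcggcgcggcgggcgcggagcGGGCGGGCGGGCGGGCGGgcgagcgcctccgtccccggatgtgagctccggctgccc
Cacna2d1: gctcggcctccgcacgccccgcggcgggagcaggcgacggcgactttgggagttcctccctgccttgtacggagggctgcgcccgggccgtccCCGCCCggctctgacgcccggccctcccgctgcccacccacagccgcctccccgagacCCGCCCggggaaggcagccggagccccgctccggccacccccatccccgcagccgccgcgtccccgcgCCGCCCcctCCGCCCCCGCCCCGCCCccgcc
Scn9a: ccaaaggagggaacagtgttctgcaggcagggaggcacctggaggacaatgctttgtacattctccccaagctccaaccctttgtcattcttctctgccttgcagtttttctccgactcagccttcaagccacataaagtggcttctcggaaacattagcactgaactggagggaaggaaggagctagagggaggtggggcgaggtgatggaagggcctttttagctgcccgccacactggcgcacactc
Cacng7: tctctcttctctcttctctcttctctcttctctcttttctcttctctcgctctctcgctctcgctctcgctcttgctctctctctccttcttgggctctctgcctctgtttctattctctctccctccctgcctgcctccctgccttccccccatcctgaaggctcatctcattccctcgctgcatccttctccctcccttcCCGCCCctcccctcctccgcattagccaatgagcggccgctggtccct

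Cacna2d1 held 6 GC boxes and 36 CpG, Cacng7 held 1 GC box and 9 CpG, and Scn9a held none of the motifs and 5 CpG. The GC box was in 14 of the 38 windows, against 32.7% of 32851 windows of all genes. The TATA box was in 2 windows, those of Cacna1d and Scn2a, against 12.4% of all. AGATAA was in 1 window, that of Scn7a, against 9.99% of all. The median of all windows was 6.0 CpG. These matches describe letters in short windows and say nothing about binding.

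Of the 36 channel genes, 8 were lower and 4 were higher on the arrays labelled Gata6 KO (limma, with p-values adjusted by Benjamini-Hochberg over the 22180 genes and called under 0.05). Lower members made up 22.2% of the 36 genes, against 7.36% of all genes, and higher members 11.1%, against 17.4%. The median change of the 36 genes was -0.23, and that of all genes was 0 by construction. The 8 lower genes were the calcium pore genes Cacna1d, Cacna1a and Cacna1c, the calcium auxiliary genes Cacna2d1 and Cacnb2, the sodium pore genes Scn9a and Scn3a, and the sodium auxiliary gene Scn3b. The 4 higher genes were Cacna1i, Cacng7, Scn2a and Scn4b. For 15 of the 36 channel genes the 4 Gata6 KO values lay all above or all below the 3 controls, against 34.3% of all genes. The split depended on the scaling: with each array centred on its median, and also after a repeated quantile normalization, 11 genes were lower and 1 was higher. The genes gained by both were Cacna1b, Cacna1s and Scn8a, the ones lost were Cacna1i, Scn2a and Scn4b, and Cacng7 was the gene still called higher. Over all genes the split was 1633 lower and 3853 higher, against 2769 and 1870 with centring and 2477 and 2440 after quantile normalization. With the Xist level as a block, 8 genes were lower and 4 higher, and on the 5 arrays with high Xist alone 7 were lower and 2 higher. The count of higher genes was 1 without control array 1 or control array 2, and 2 without control array 3 or without the array labelled Gata6 KO 1 or 2. Without the array labelled Gata6 KO 3, 7 genes were lower, with Scn3a lost, and 3 were higher, with Cacna1i lost.

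**Figure D1:**
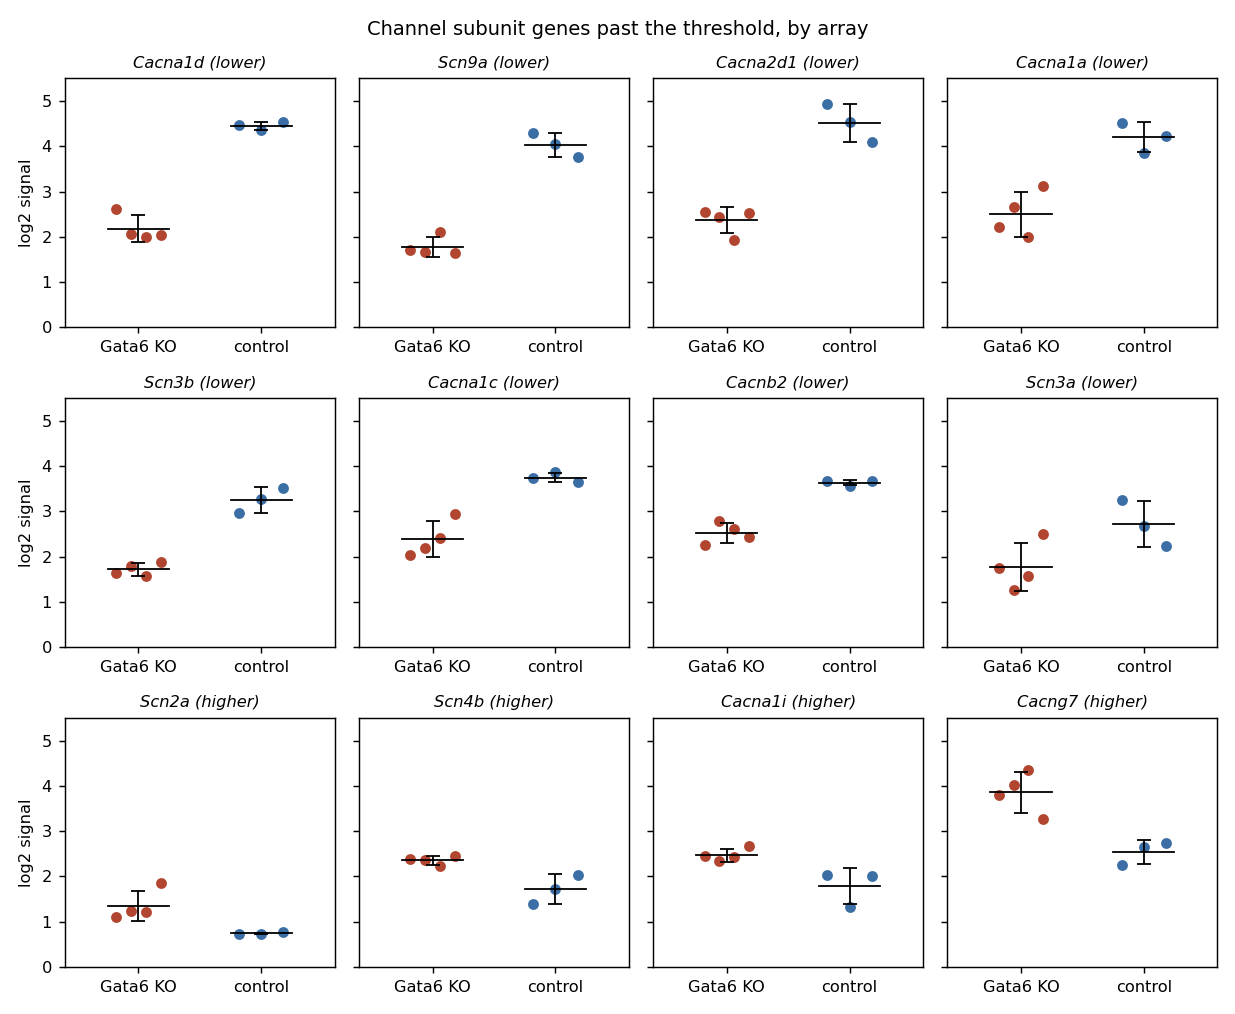
Log2 signal (y axis) of the 12 channel genes past the threshold on each of the 4 arrays labelled Gata6 KO and the 3 control arrays; points are arrays, horizontal bars are means and error bars are SD. Scn3a is the gene whose groups overlap: 2.51 on the array labelled Gata6 KO 4 lay above 2.23 on control array 3.

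Among L-type calcium pores, which carry much of the calcium current of beta cells, Cacna1d was the member with the largest fall. Cacna1d measured 2.62, 2.07, 1.99 and 2.04 on the arrays labelled Gata6 KO, against 4.46, 4.36 and 4.53 on the control arrays. All 4 were below all controls, and the array labelled Gata6 KO 1 was the highest of its group. The means were 2.18 ± 0.29 (SD, n = 4) for Gata6 KO and 4.45 ± 0.085 (SD, n = 3) for control. The change was -2.44 with an SE of 0.22, or 5.41-fold lower (adjusted p = 1.12e-05).

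Cacna1c, the other L-type pore known from islets and the main one of heart muscle, also fell. Its signals were 2.03, 2.19, 2.41 and 2.94 for Gata6 KO, against 3.74, 3.86 and 3.64 for control, and the groups did not overlap. The change was -1.52 with an SE of 0.24 (adjusted p = 0.00118). The difference between the changes of Cacna1c and Cacna1d was 0.92 and did not pass an exact permutation test of their within-array difference (two-sided p = 0.0857, adjusted p = 0.101 over 13 pairs). The remaining L-type pores, Cacna1s of skeletal muscle and Cacna1f of the retina, changed by -0.63 (95% interval -1.08 to -0.19) and 0.33 (-0.27 to 0.94), and neither passed the test (adjusted p = 0.118 and 0.217). Intervals are for the difference minus the shift and leave out the error of the shift.

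Of the pores best known from nerve terminals, Cacna1a, the P/Q-type pore, passed the test. Cacna1a measured 2.21, 2.65, 2.00 and 3.13 for Gata6 KO, against 4.52, 3.86 and 4.24 for control. All Gata6 KO arrays lay below the controls, with array 4 the closest. The change was -1.87 with an SE of 0.28, or 3.67-fold lower (adjusted p = 6.15e-04). Cacna1b, the N-type pore, measured 2.06, 2.35, 2.20 and 2.93 for Gata6 KO, against 3.23, 2.69 and 2.72 for control. It changed by -0.66 (95% interval -1.20 to -0.12) without passing (adjusted p = 0.167). Cacna1e, the R-type pore, which is linked to insulin release in mice, measured 1.05 to 1.20 for Gata6 KO, against 1.18 to 1.45 for control. Its change was -0.35 (95% interval -0.69 to -0.0086, adjusted p = 0.430), at a mean signal among the lowest 40% of genes.

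Of the T-type pores, which open at low voltages, 0 of 3 passed as lower and Cacna1i passed as higher. Cacna1i measured 2.44, 2.34, 2.42 and 2.67 for Gata6 KO, against 2.04, 1.32 and 2.01 for control, so that all 4 lay above the controls. Its change was 0.51 with an SE of 0.23 (adjusted p = 0.0417). The Cacna1i call was lost when any of the 7 arrays was left out (adjusted p = 0.0567 to 0.221, in a range from 0.031 to 0.221 over all alternatives). Cacna1g and Cacna1h changed by 0.22 and -0.19 and did not pass (adjusted p = 0.116 and 0.958). Each of Cacna1a, Cacna1c and Cacna1d differed from Cacna1i in its change, by -2.39, -2.03 and -2.95 (exact permutation p = 0.0286 for each, the smallest possible, and adjusted p = 0.0413 over 13 pairs). These 13 pairs are all pairs of called genes within a class. They were chosen after the calls were known. For pairs of a lower with a higher gene, as in each of those with Cacna1i, that choice fixed the direction, and the p adds no support.

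**Figure D2:**
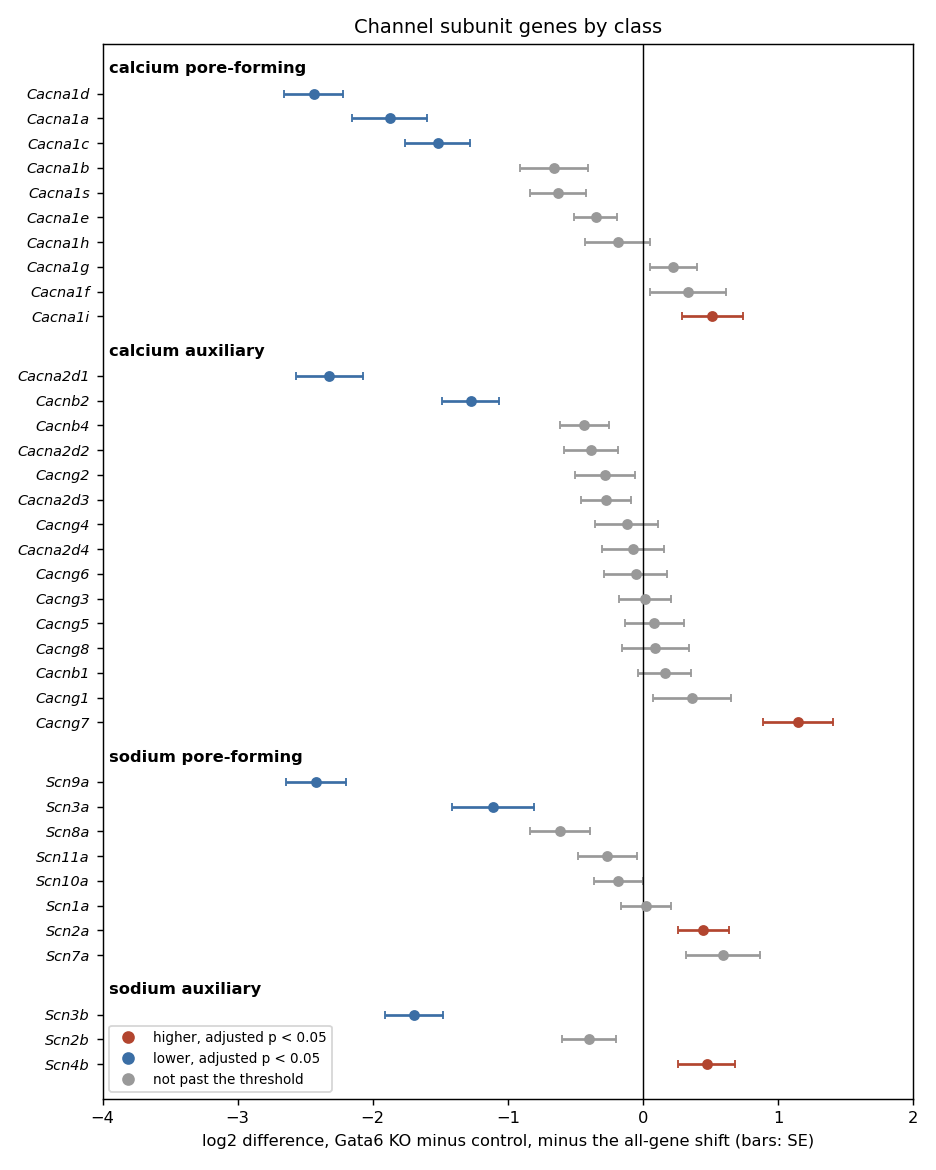
Change of each of the 36 channel genes by class: log2 difference Gata6 KO minus control, minus the all-gene shift (x axis), with bars of 1 SE. Blue genes were lower and red genes higher at an adjusted p under 0.05, and the values run from -2.44 for Cacna1d to 1.15 for Cacng7.

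The alpha-2-delta gene Cacna2d1, a target of gabapentin that raises the number of channels at the membrane, fell on every array labelled Gata6 KO. Cacna2d1 measured 2.55, 2.44, 1.94 and 2.53 for Gata6 KO, against 4.93, 4.54 and 4.08 for control. The groups were far apart relative to their spread, with array 3 the lowest. The change was -2.32 with an SE of 0.25, or 4.998-fold lower (adjusted p = 4.31e-05). The other alpha-2-delta genes, Cacna2d2, Cacna2d3 and Cacna2d4, changed by -0.38, -0.27 and -0.076, and their groups overlapped (adjusted p = 0.451, 0.705 and 0.808).

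Among beta subunit genes, Cacnb2 was the member past the threshold. Cacnb2 measured 2.26, 2.78, 2.62 and 2.44 for Gata6 KO, against 3.68, 3.57 and 3.67 for control. The control arrays lay within a narrow band that no Gata6 KO array reached. The change was -1.28 with an SE of 0.21 (adjusted p = 0.00178). A second probe set of Cacnb2 gave 1.70 ± 0.52 (SD, n = 4) for Gata6 KO and 1.504 ± 0.052 (SD, n = 3) for control. With the mean of both probe sets the unshifted difference was -0.46 and the call was lost (adjusted p = 0.123, in a range from 4.60e-04 to 0.123). Cacnb1, best known as the beta subunit of skeletal muscle, was slightly higher on each Gata6 KO array (2.93 to 3.06) than on each control array (2.56 to 2.76), but its change of 0.16 (95% interval -0.26 to 0.58) did not pass (adjusted p = 0.242). Cacnb4, a beta subunit of brain channels, changed by -0.43 (adjusted p = 0.302), and its second probe set, not tested by itself, had an unshifted difference of 0.41.

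Cacng7, which encodes an auxiliary protein of AMPA receptors, was the channel gene with the largest rise. Cacng7 measured 3.80, 4.02, 4.36 and 3.28 for Gata6 KO, against 2.25, 2.65 and 2.75 for control. All 4 lay above the controls, with array 4 the closest. The change was 1.15 with an SE of 0.26, or 2.22-fold higher (adjusted p = 0.00256). Cacng8 and Cacng6, which follow it on chromosome 7 with no coding gene between, changed by 0.092 and -0.054 (adjusted p = 0.478 and 0.765).

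The remaining gamma-type genes did not pass the test. Cacng4, also an AMPA receptor protein, measured 3.94, 4.23, 4.75 and 4.01 for Gata6 KO, against 4.32, 4.27 and 3.97 for control. The groups interleaved, and the change was -0.12 (95% interval -0.62 to 0.38, adjusted p = 0.907). Cacng1, the gamma subunit of the skeletal muscle channel, measured 1.52, 1.56, 1.94 and 2.92 for Gata6 KO, against 1.41 to 1.49 for control. Its change of 0.36 came mostly from array 4 (adjusted p = 0.201). Cacng2, Cacng3 and Cacng5 changed by -0.28, 0.015 and 0.085. Of the AMPA receptor subunit genes Gria1 to Gria4 and the AMPA receptor chaperones Cnih2 and Cnih3, 0 of 6 passed the test with limma. At an unadjusted p under 0.05 for the unshifted difference, 1 of the 6 differed, Gria2 (change -0.85, adjusted p = 0.0718).

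Among sodium channel pores, Scn9a, known as a main sodium channel of mouse beta cells and of pain-sensing neurons, fell. Scn9a measured 1.71, 1.65, 2.11 and 1.65 for Gata6 KO, against 4.30, 4.05 and 3.76 for control. No Gata6 KO array came near the controls. The change was -2.42 with an SE of 0.22, or 5.36-fold lower (adjusted p = 1.26e-05). Its Gata6 KO mean of 1.78 lay below 1.98, the level under which the lowest 40% of all genes lay, so this fold may understate the difference. The same holds for Scn3a and Scn3b below. Another probe set, annotated with Scn9a and Gm13629 together and therefore not used for either, gave 1.73 ± 0.47 (SD, n = 4) for Gata6 KO and 1.49 ± 0.10 (SD, n = 3) for control.

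Scn3a, the other sodium channel pore known from mouse islet cells, also fell. Scn3a measured 1.75, 1.27, 1.58 and 2.51 for Gata6 KO, against 3.25, 2.69 and 2.23 for control, and array 4 reached into the control range. The change was -1.11 with an SE of 0.30 (adjusted p = 0.0347). Leaving out control array 1 or 2 ended the Scn3a call (adjusted p = 0.177 and 0.0888), as did leaving out the array labelled Gata6 KO 1, 2 or 3 (adjusted p = 0.0600, 0.0930 and 0.0795), within limits of 0.00324 and 0.177 over all alternatives.

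The sodium channel genes on chromosome 2 are neighbours and did not move together. In RefSeq order they run Scn3a, Scn2a, Scn1a, Scn9a and Scn7a, with 3 coding genes between Scn2a and Scn1a and none in the other gaps. Their changes in that order were -1.11, 0.45, 0.019, -2.42 and 0.60. Scn2a, a pore of axons in the brain, measured 1.11, 1.24, 1.21 and 1.85 for Gata6 KO, against 0.73, 0.73 and 0.76 for control, a difference at very low signals. Its change was 0.45 with an SE of 0.19 (adjusted p = 0.0291). Leaving out any control array ended the Scn2a call (adjusted p = 0.0908, 0.0873 and 0.0733 for arrays 1, 2 and 3, within limits of 0.0201 and 0.132). Scn2a and Scn3a, which lie side by side, differed in their changes by 1.56 (exact two-sided permutation p = 0.0286, adjusted p = 0.0413). Scn2a had been called higher and Scn3a lower before this test, so its direction was fixed and its p adds no support.

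Scn7a, a sodium-sensing relative found in glia and other cells, measured 2.89, 2.47, 2.99 and 1.75 for Gata6 KO, against 1.72, 1.83 and 1.74 for control. Arrays 1 to 3 were above the controls and array 4 was among them, and the change of 0.60 did not pass (adjusted p = 0.0564). Without array 4 it passed (adjusted p = 0.00415, in a range from 0.00415 to 0.249). Scn8a, a pore of axon initial segments, changed by -0.61 (95% interval -1.08 to -0.14, adjusted p = 0.155). Scn1a, a pore of inhibitory neurons, and Scn10a and Scn11a, pores of sensory neurons, changed by 0.019, -0.18 and -0.26, and their groups overlapped.

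The sodium channel beta subunit genes Scn3b and Scn4b moved in opposite directions. Scn3b measured 1.64, 1.80, 1.58 and 1.88 for Gata6 KO, against 2.96, 3.27 and 3.52 for control. The groups were well separated, and the change was -1.69 with an SE of 0.21, or 3.24-fold lower (adjusted p = 1.99e-04). Scn4b measured 2.38, 2.37, 2.23 and 2.46 for Gata6 KO, against 1.40, 1.73 and 2.04 for control. Its change was 0.47 with an SE of 0.21 (adjusted p = 0.0396). Leaving out control array 1 or 2 ended the Scn4b call (adjusted p = 0.200 and 0.105), as did leaving out the array labelled Gata6 KO 1, 2 or 4 (adjusted p = 0.0612, 0.0722 and 0.0573), within limits of 0.026 and 0.200 over all alternatives. Scn2b, the next gene to Scn4b on chromosome 9, changed by -0.40 (adjusted p = 0.414).

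Of the 36 genes, 14 had a mean over all arrays below 1.98. Scn2a was the 1 of these 14 past the threshold, and over all genes 1058 of the 8872 below this level were. The 24 genes that did not pass changed by between -0.66 and 0.60. At an unadjusted p under 0.05 for the unshifted difference, 3 of these 24 differed, namely Cacna1s, Cacna1g and Scn7a. The share of all genes at that level was not counted. After the shift, the 95% interval of Cacna1g held 0 (-0.15 to 0.60). Those of Cacna1b, Cacna1e, Cacnb4 and Scn8a then lay below 0, as did that of Cacna1s, and that of Scn7a lay above 0.

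Among the 8 genes that fell, the array labelled Gata6 KO 3 was the lowest of its group for 4 and array 4 was the highest for 4. The mean signal of these 8 genes was 2.10, 2.11, 2.03 and 2.39 on arrays 1 to 4 of Gata6 KO. Array 4 was also the highest for 3 of the 4 genes that rose. On average, array 4 was the Gata6 KO array closest to the controls for the genes that fell. The median signal of all genes was also highest on array 4 (2.57, against 2.38, 2.45 and 2.48 on Gata6 KO arrays 1 to 3). Its part in this order was not tested.

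**Figure D3:**
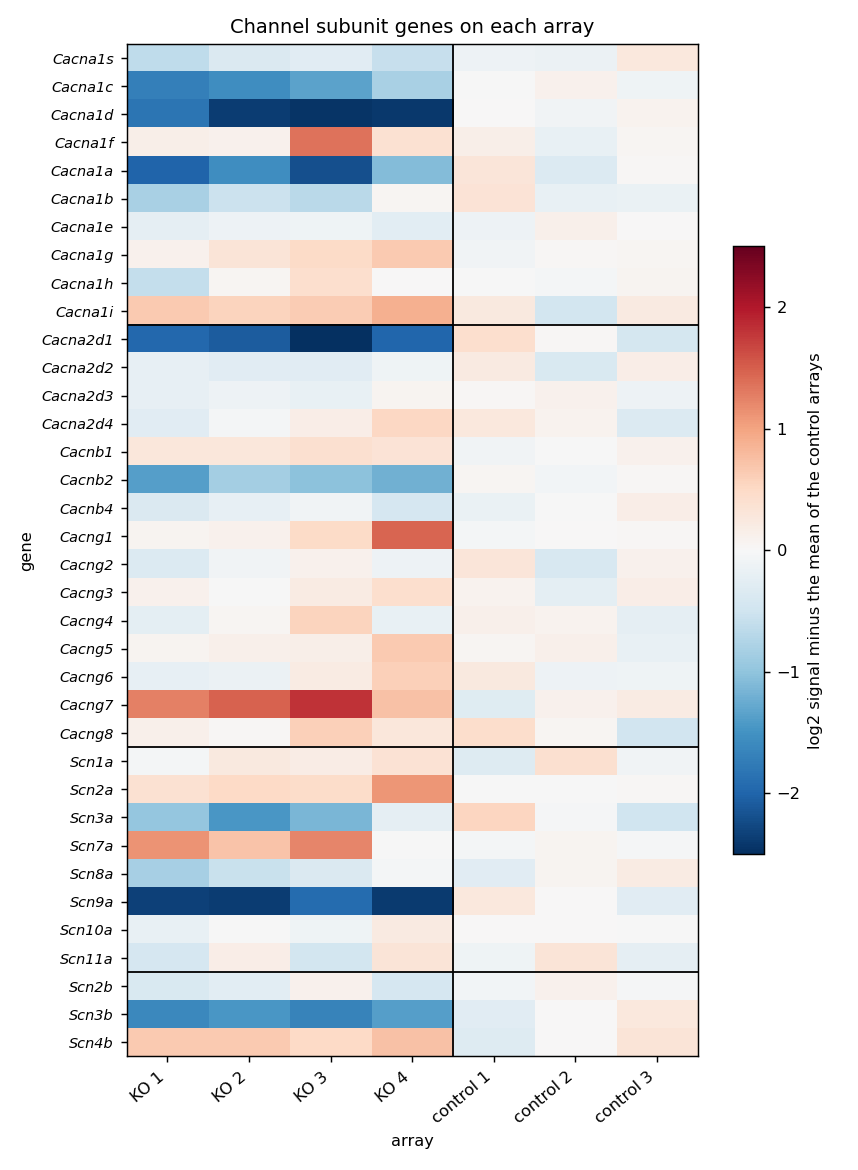
Log2 signal of the 36 channel genes (rows, by class) on each array (columns), minus the mean of the control arrays for that gene. Dark blue rows are Cacna1d, Cacna2d1 and Scn9a on all 4 arrays labelled Gata6 KO, and the darkest red cell is Cacng7 on array 3.

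Markers of islet cells and of several other cell types also differed between the groups, some lower and some higher. For comparison, 7.36% of all genes were lower and 17.4% were higher. Of the 11 endocrine markers 10 were lower and 0 higher. The array labelled Gata6 KO 3 had the lowest endocrine mean, with Gcg at 6.85 and Chga at 6.50, against at least 10.31 and 9.11 on the other Gata6 KO arrays. Of 12 measured acinar markers 6 were higher and 0 lower, with means of 10.74 to 10.86 for Gata6 KO and 9.95 to 10.01 for control. Mesenchymal (6 of 9), muscle (4 of 7), lymphoid (4 of 7) and myeloid (2 of 6) markers were higher in part, and endothelial (4 of 8) and neuronal markers (3 of 8) were lower in part. The lower neuronal markers were Th, Tubb3 and Elavl4, with changes of -2.84, -1.38 and -1.27. Elavl3 changed by -0.80 without passing. Nefl, Nefm, Prph and Rbfox3 did not fall alike: they changed by -0.011, 0.32, 0.11 and -0.091, and none passed. Ductal markers had 1 lower and 1 higher of 5. Of 4 Schwann cell markers 0 passed (limma), nor was any at an unadjusted p under 0.05 for the unshifted difference. The mean of the muscle list was 2.86 to 3.19 for Gata6 KO and 2.39 to 2.54 for control, and that of the neuronal list 2.20 to 2.55 for Gata6 KO and 2.81 to 3.04 for control. Acinar signal was high in both groups: Ctrb1 averaged 13.45 for Gata6 KO and 13.40 for control. Its 13.54 on the array labelled Gata6 KO 4 was the highest value of any probe set. The islet pools therefore also carried acinar RNA, and the share of islet cells in each pool was not measured. In such bulk RNA, fewer cells of a type, more cells of other types and less RNA per cell cannot be told apart. The part of these lists in the channel results was not tested.

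Among 16 measured genes whose proteins hold calcium channels at release sites or regulate them, 4 (25%) were lower, against 7.36% of all genes. Another 3 (18.8%) were higher, close to the 17.4% of all genes, and the median change was -0.071. Cbarp, which binds beta subunits and restrains calcium channels, measured 2.85, 2.75, 2.98 and 3.87 for Gata6 KO, against 5.24, 5.09 and 5.46 for control, a change of -2.32 (SE 0.27, adjusted p = 7.90e-05). Rimbp2, which ties calcium channels to the release machinery, changed by -2.21 (SE 0.24, adjusted p = 5.21e-05), while the related gene Tspoap1 changed by 0.96 (SE 0.26, adjusted p = 0.00616). Rrad, a small GTPase that inhibits calcium channels through their beta subunits, changed by 0.99 (SE 0.22, adjusted p = 0.00221). For each of these 4 genes the groups did not overlap.

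Of 8 measured sodium channel partners 4 (50%) were lower, against 7.36% of all genes, and 0 were higher, against 17.4%. The median change was -0.78. Fgf12, an intracellular FGF that binds the tail of sodium channels, measured 2.56, 2.80, 1.90 and 3.28 for Gata6 KO, against 4.69, 4.40 and 4.52 for control, a change of -2.06 (SE 0.28, adjusted p = 3.27e-04). Ank3 and Ank2, scaffolds that anchor membrane channels, changed by -1.31 (SE 0.22, adjusted p = 0.00237) and -1.02 (SE 0.21, adjusted p = 0.00975). Nedd4l, a ubiquitin ligase that acts on sodium channels, changed by -1.42 (SE 0.38, adjusted p = 0.0272). Its 4 Gata6 KO arrays spread from 2.56 to 4.75 and overlapped with the controls. Leaving out any control array ended the Nedd4l call (adjusted p = 0.119, 0.0671 and 0.0541 for arrays 1, 2 and 3), as did leaving out the array labelled Gata6 KO 2, 3 or 4 (for the last 2 of these, adjusted p = 0.0647 and 0.0539), within limits of 0.00133 and 0.119. Leaving out control array 1 ended the Ank2 call (adjusted p = 0.0651, the highest of a range that begins at 0.00244).

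The sodium leak channel NALCN, a relative of these pores that sets the resting potential, changed together with its subunits. Of 10 measured relatives and their subunits 5 (50%) were lower, against 7.36% of all genes, and 0 were higher, against 17.4%. The lower genes were Nalcn, Fam155a, Unc80, Unc79 and Tpcn1, and the median change of the list was -0.65. Nalcn, the pore, measured 1.14, 1.45, 1.47 and 1.85 for Gata6 KO, against 3.52, 3.33 and 3.02 for control, a change of -1.98 (SE 0.23, adjusted p = 8.14e-05), with all Gata6 KO values at low signal. Its subunit genes Fam155a, Unc80 and Unc79 changed by -3.41 (SE 0.29, adjusted p = 7.27e-06), -3.13 (SE 0.26, adjusted p = 6.49e-06) and -1.39 (SE 0.27, adjusted p = 0.00545). The groups of all 4 genes were apart. Fam155a measured 2.37, 2.58, 1.63 and 2.79 for Gata6 KO, against 5.83, 5.89 and 5.03 for control, which is 10.6-fold lower.

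**Figure D4:**
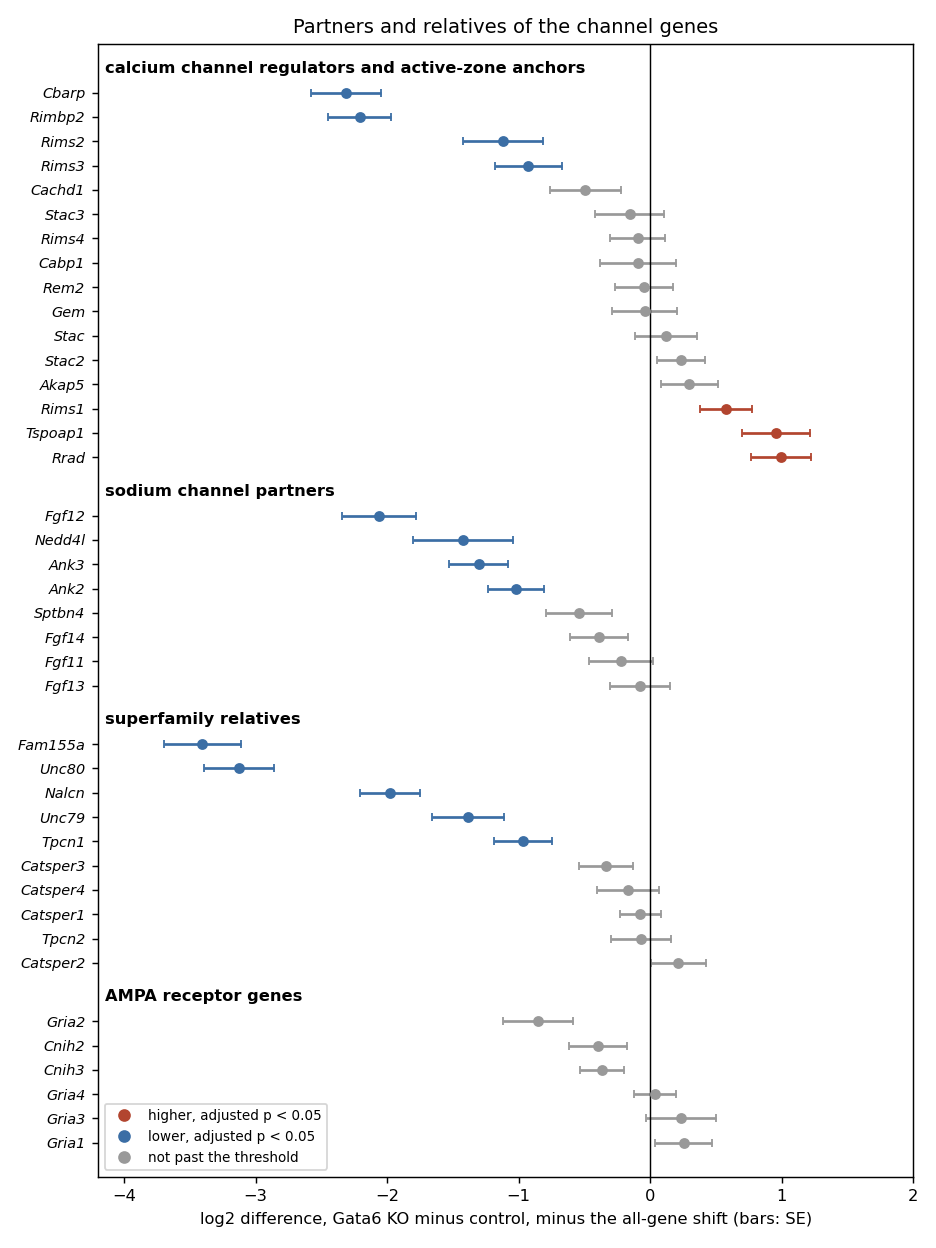
Change of the measured genes of the lists of calcium channel regulators, sodium channel partners, superfamily relatives and AMPA receptor genes: log2 difference Gata6 KO minus control, minus the all-gene shift (x axis), with bars of 1 SE. The lowest are Fam155a at -3.41 and Unc80 at -3.13, and the highest of those plotted is Rrad at 0.99. Rest is not plotted.

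Rest, which encodes a repressor of neuronal genes that include sodium channel genes, measured 3.09, 3.37, 2.91 and 3.87 for Gata6 KO, against 2.06, 1.94 and 2.36 for control. All 4 Gata6 KO arrays were above the controls, and the change was 1.02 with an SE of 0.25 (adjusted p = 0.00369). The part of Rest in the changes of the channel genes was not tested.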

How the data were processed

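The authors deposited log2 values. The tools recorded for them are RMA and Transcriptome Analysis Console, per the submitters' processing notes. Versions and genome build are not given in the sources used here. RMA corrects background, normalizes quantiles and summarises probe sets, and it compresses differences near background. The 7 arrays held 41345 probe sets. The 23521 with 1 gene symbol in the platform annotation were used, and where a gene had several, that of the highest 7-array mean was kept, leaving 22180 genes. Array medians over all probe sets were 1.89 to 2.11 for Gata6 KO and 1.72 to 1.78 for control. Between arrays of a group, correlations over genes were 0.953 to 0.973 for Gata6 KO and 0.974 to 0.978 for control. The number of arrays limits the precision.

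Groups were taken from the titles. The test was limma's (version 3.58.1, R 4.3.3), two-sided, by lmFit and eBayes with trend and with no covariate, over all genes at a Benjamini-Hochberg adjusted p under 0.05. The fit was tested on simulated data with known answers. It recovered 46% of simulated log2 changes of 1 and 94% of those of 2. A gene that did not pass can therefore still differ. Exact permutation tests of pairs used all 35 assignments of 7 arrays to groups of 4 and 3, so that the smallest p is 0.0286. Members and lists were chosen with earlier results of these data known. All members are described, in full those past the threshold (at most 8 per class) and the 2 per class with the highest mean. Of each of the 5 partner lists, up to 4 genes past the threshold are named, by smallest p. Gria2, Cnih2, Cnih3 and the other AMPA receptor genes were named after their values were seen. Alternatives covered scaling, a low-signal filter, probe set choice, the variance model, array weights, the replicate number, the threshold and leaving out each array. A block for Xist level and the 5 arrays with high Xist alone were added after seeing the data. Promoter sequences are RefSeq's. Figures were drawn with matplotlib 3.10.9.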

Additional observations from a re-analysis of the deposited data

Results flagged for a closer look

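For 4 of the 36 channel genes, 1 array labelled Gata6 KO stood far from the other 3, judged by its gap to the nearest array as a share of the group's range against Dixon's 95% critical value. About 1 in 20 groups would be marked by chance. Cacna1d was 2.62 on array 1, against 1.99 to 2.07 on the other Gata6 KO arrays (share 0.874). Scn9a was 2.11 on array 3, against 1.65 to 1.71 (share 0.874). Cacng5 was 3.53 on array 4, against 2.94 to 3.01 (share 0.877). Scn2a was 1.85 on array 4, against 1.11 to 1.24 (share 0.831). For Cacna1d and Scn9a the distant array was still below every control array.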

How the results depend on the processing

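Of the 12 called channel genes, 7 kept their call and direction in all 17 alternatives, namely Cacna1a, Cacna1c, Cacna1d, Cacna2d1, Cacng7, Scn3b and Scn9a. Where values changed otherwise, the cause was not tested. The count of lower channel genes, 8, was 7 at a threshold of 0.01 and 7 to 9 with each array left out. The count of higher channel genes, 4, was 1 with centring, quantile normalization and a threshold of 0.01, 2 with the replicate block and on high-Xist arrays alone, and 1 to 3 with each array left out. Lower calcium pore genes, 3, were 5 with centring and quantile normalization. Higher calcium pore genes, 1, were 0 with centring, quantile normalization, the replicate block, high-Xist arrays alone, a threshold of 0.01 and each array left out (0 to 0). Lower calcium auxiliary genes, 2, were 1 with the mean of all probe sets. Lower sodium pore genes, 2, were 1 on high-Xist arrays alone and at 0.01, and 1 to 2 with each array left out. Higher sodium pore genes, 1, were 2 with array weights, 0 with centring, quantile normalization, high-Xist arrays alone and 0.01, and 0 to 2 with each array left out. Higher sodium auxiliary genes, 1, were 0 with centring, quantile normalization, the replicate block and 0.01, and 0 to 1 with each array left out.

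Unshifted log2 differences of 11 uncalled genes changed sign. With centring they were -0.14 for Cacna2d4, -0.048 for Cacng3, -0.18 for Cacng4, -0.12 for Cacng6 and -0.044 for Scn1a. With quantile normalization they were -0.11 for Cacna2d4, -0.013 for Cacng3 and -0.097 for Cacng6. With the replicate block they were -0.051 for Cacna2d4 and -0.048 for Cacng6. On high-Xist arrays alone they were -0.11 for Cacna2d4, -0.23 for Cacng4, -0.10 for Cacng8 and 0.0024 for Scn10a. The Xist block gave 0.0098 for Cacna1h, and the mean of all probe sets 0.070 for Cacnb4. With each array left out, Cacna1h ranged from -0.17 to 0.17, Cacna2d4 from -0.085 to 0.23, Cacng2 from -0.31 to 0.034, Cacng4 from -0.13 to 0.14, Cacng6 from -0.048 to 0.23, Scn10a from -0.098 to 0.040 and Scn11a from -0.24 to 0.068.

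Whether the replicate numbers pair the arrays was not settled. Deviations of same-numbered arrays correlated at 0.098, 0.0043 and 0.11, against -0.14 to 0.073 for arrays of unlike number. The block left out the array labelled Gata6 KO 4. The low-signal filter left 22 of the 36 genes. The other 14 had low signal, where arrays measure differences less well.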
